A study of Homo sapiens with 6 samples.

Results

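The imprinted genes examined here were H19, IGF2, MEST, PEG3, PEG10, PLAGL1, DLK1, NDN, SNRPN and GRB10, 10 genes known to be read from 1 parental copy in at least some human tissues. A probe was taken for a gene where the array's annotation named that gene alone. By this rule 8 of the 10 genes were measured, through 13 of 31741 probes. IGF2 had 3 probes, each of which also named INS-IGF2, and these were not used. MEST was named by no probe. For SNRPN, 2 probes that also named SNURF were left out and 2 were kept. The study compared 3 control flasks (control 2, 5 and 6), which received 15 µl of DMSO, a solvent, with 3 drug flasks (drug 1, 3 and 4), which received a chemotherapy agent; the sources used here do not give its name, dose or exposure time. The characteristics of all 6 flasks give NCI-H446, an established small cell lung cancer line. Each flask was read on its own single-colour Phalanx OneArray microarray, and the labels do not say whether the drug flasks also received DMSO. The labels conflict in part: by source name the DMSO volume rises by 1 µl from each control flask to the next, and the number of the line rises by 1 from each drug flask to the next. The characteristics were followed here.

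Genomic imprinting rests on DNA methylation set on 1 parental copy in the egg or the sperm, and an imprinted gene is transcribed from 1 copy alone. Imprinted genes lie in clusters that share a control region, many act on growth of the fetus and placenta, and tumours often show altered use of them. An expression array sums both copies and cannot tell them apart, so the values below are total RNA signals and carry no information on the allele. In a population of cells, fewer cells that express a gene and less RNA per cell cannot be told apart either. PEG3, PEG10, PLAGL1, DLK1, NDN, SNRPN, IGF2 and MEST are paternally expressed and H19 is maternally expressed. GRB10 is tissue-dependent, with the maternal copy used in trophoblast, the paternal one in brain and both in many other tissues, and is kept apart from both groups below.

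RefSeq start windows on GRCh38.p14, which reach from 250 bases before a transcript's start to 50 after it, were at hand for 6 of the 10 genes, 21 windows in all. The motif searched was TGCCGC, the core that ZFP57, a keeper of imprints, recognises when methylated; it was read on both strands (GCGGCA on the other), and each match itself holds a CpG. It occurred in 9 of the 21 windows, from 5 of the 6 genes, and in 16.7% of all 35116 RefSeq windows. Some windows of MEST overlap and hold the same match, so the 9 are not independent. The members' share was not tested against that of all windows. The windows shown belong to PLAGL1, the paternally expressed member that fell, and to SNRPN and NDN from the Prader-Willi cluster, which did not pass the test. Capitals mark the motif, and a match is a description of letters, not of binding.
PLAGL1, start shared with HYMAI, chr6:144008210-144008509, minus strand: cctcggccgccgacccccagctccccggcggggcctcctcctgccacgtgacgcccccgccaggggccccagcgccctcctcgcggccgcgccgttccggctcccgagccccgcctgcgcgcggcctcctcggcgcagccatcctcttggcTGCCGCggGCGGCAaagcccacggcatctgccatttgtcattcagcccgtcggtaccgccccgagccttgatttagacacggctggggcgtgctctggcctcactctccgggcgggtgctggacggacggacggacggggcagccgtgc
PLAGL1, a second CpG-rich start, chr6:144064550-144064849, minus strand: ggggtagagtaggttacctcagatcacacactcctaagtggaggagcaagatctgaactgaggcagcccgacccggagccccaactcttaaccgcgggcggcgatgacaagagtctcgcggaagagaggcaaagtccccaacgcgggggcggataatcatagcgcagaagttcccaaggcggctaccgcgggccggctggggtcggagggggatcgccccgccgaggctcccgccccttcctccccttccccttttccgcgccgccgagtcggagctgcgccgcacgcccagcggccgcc
SNRPN, start shared with SNURF, chr15:24954737-24955036, plus strand: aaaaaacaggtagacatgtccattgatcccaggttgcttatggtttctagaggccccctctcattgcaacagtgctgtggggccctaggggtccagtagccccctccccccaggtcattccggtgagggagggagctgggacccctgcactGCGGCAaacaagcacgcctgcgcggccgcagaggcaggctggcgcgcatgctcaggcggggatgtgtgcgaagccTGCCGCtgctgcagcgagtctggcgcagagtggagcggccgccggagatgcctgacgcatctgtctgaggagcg
NDN, chr15:23687256-23687555, minus strand: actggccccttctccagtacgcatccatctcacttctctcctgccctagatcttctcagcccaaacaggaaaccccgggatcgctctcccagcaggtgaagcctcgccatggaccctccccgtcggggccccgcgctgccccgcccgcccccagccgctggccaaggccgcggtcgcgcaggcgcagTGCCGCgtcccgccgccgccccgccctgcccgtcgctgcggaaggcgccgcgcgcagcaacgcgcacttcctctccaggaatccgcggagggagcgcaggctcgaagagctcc

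Of the 5 PLAGL1 windows, the one shared with HYMAI held 39 CpGs and 2 motif matches. The second CpG-rich window held 31 CpGs and 0 matches, and the other PLAGL1 windows held 2 or 3 CpGs. The SNRPN window shared with SNURF held 18 CpGs and 2 matches and the NDN window 35 CpGs and 1 match, against a median of 14 CpGs over all windows. The single H19 window held 6 CpGs and 0 matches. The array annotation does not say which start a PLAGL1 or SNRPN probe reads, so the values below belong to the gene and not to a window.

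H19 is also the host transcript of the miR-675 hairpin. Its mature strands are shown because the H19 signal includes the primary transcript they are cut from, while the miRNAs themselves were not measured. Capitals mark the seed, bases 2 to 8.
hsa-miR-675-5p, chr11:1996800-1996822, minus strand: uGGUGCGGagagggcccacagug
hsa-miR-675-3p, chr11:1996768-1996787, minus strand: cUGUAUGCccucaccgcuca

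Among the paternally expressed genes, PEG10 rose strongly and PLAGL1 fell, while SNRPN, PEG3, DLK1 and NDN did not pass the test. Values are log2(intensity + 1) after quantile normalization between arrays, a difference is drug minus control on that scale, and a change was called where limma's adjusted p, over all 31741 probes, was below 0.05. Of the 8 measured genes, each read from its brightest probe, 1 rose, 1 fell and 6 did not pass, so 25% were called against 35.1% of all 18336 genes. By direction, 17.6% of all genes rose and 17.5% fell, so that 50.1% of the calls were higher; with each array centred on its median 41.6% were. Of the 13 probes, 3 were called, against 31.5% of all probes (15.4% rose and 16.1% fell). The members' share of calls was thus not above that of the array as a whole, and their median difference was -0.17 against 0.0075 over all genes. A group mean below the array's lower quartile of 6.86 is called dim, and 6 of the 13 probes were dim in both groups; of genes dim in both groups, 6.57% were called, against 40.3% of those dim in neither.

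**Figure D1:**
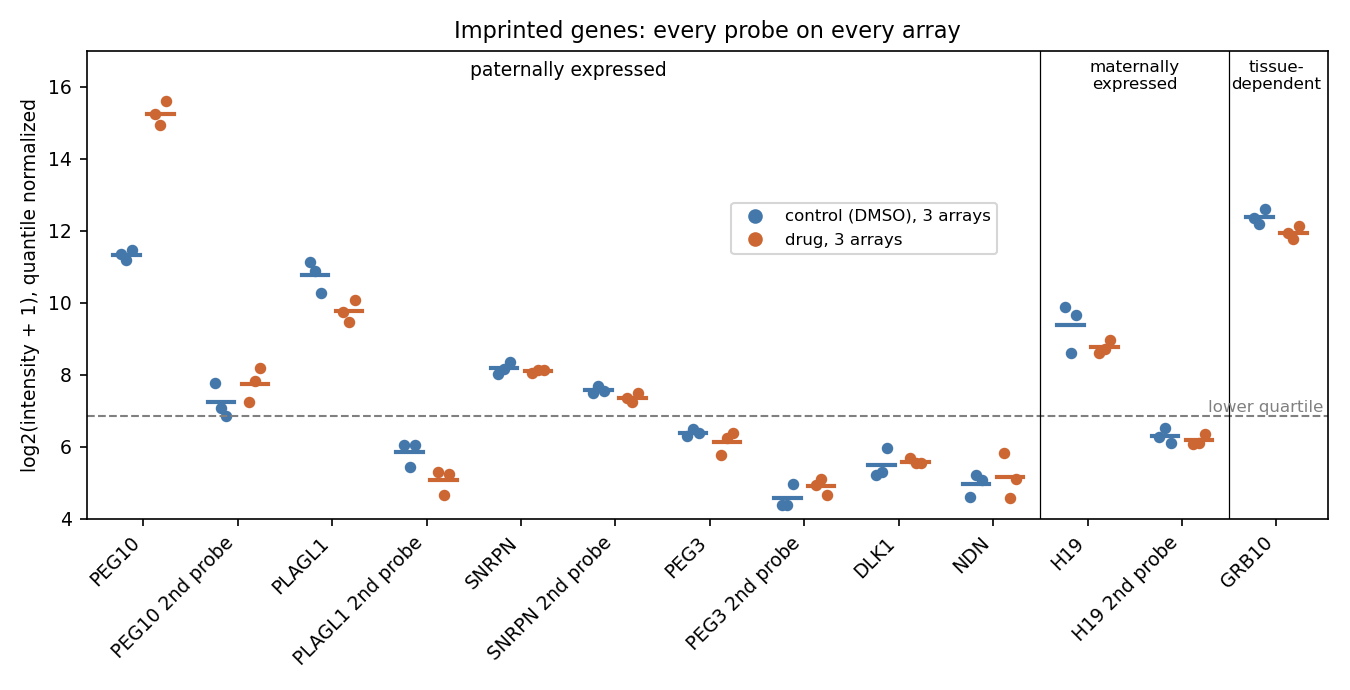
Log2(intensity + 1) after quantile normalization (vertical axis) of the 13 probes that name 1 imprinted gene, on each of the 3 control (blue) and 3 drug (orange) arrays; short bars are group means and the dashed line is the lower quartile, 6.86. The brightest PEG10 probe stood near 11.3 in control and 15.3 in drug arrays, the brightest PLAGL1 probe was lower on every drug array, and PEG3, DLK1 and NDN lay below the lower quartile.

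PEG10 derives from an ancient retrotransposon, encodes Gag-like and Gag-Pol-like proteins and is needed for the placenta in the mouse. Its brightest probe read 11.35, 11.18 and 11.46 in control flasks 2, 5 and 6, and 15.23, 14.93 and 15.61 in drug flasks 1, 3 and 4. All 3 drug arrays lay far above the control arrays, and the deposited intensities themselves went from between 2348 and 2846 to between 29821 and 49543. The mean went from 11.33 ± 0.141 (SD, n = 3) to 15.26 ± 0.34 (n = 3), a difference of 3.93 (SE 0.19), or 15.2-fold, with limma's adjusted p = 2.30e-05. The second PEG10 probe read 7.77, 7.07 and 6.86 in control flasks 2, 5 and 6, and 7.25, 7.82 and 8.18 in drug flasks 1, 3 and 4. Its groups overlapped and it did not pass, at 0.51 (SE 0.308) with adjusted p = 0.282. The 95% intervals of the probes, 3.48 to 4.38 and -0.21 to 1.24, do not overlap, and the sources used here do not say which PEG10 transcripts each probe reads. With the mean of both probes in place of the brightest, the difference was 2.22 (adjusted p = 0.000291).

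PLAGL1, also called ZAC1, is a zinc finger transcription factor that can halt the cell cycle and regulates other imprinted genes in the mouse. Its brightest probe read 11.13, 10.89 and 10.27 in control flasks 2, 5 and 6, and 9.74, 9.47 and 10.07 in drug flasks 1, 3 and 4. Every drug array was below every control array, though control 6 and drug 4 lay close together. The mean went from 10.76 ± 0.444 (SD, n = 3) to 9.76 ± 0.302 (n = 3), a difference of -1.003 (SE 0.255) with limma's adjusted p = 0.021. This call was lost without scaling between arrays (adjusted p = 0.0744) and without control 2, control 5, drug 1 or drug 3 (0.0544, 0.0595, 0.0655 and 0.0767), though the difference stayed between -1.25 and -0.82 over all 14 alternatives. The second PLAGL1 probe was dim in both groups, at 6.06, 5.44 and 6.06 in control flasks 2, 5 and 6, and 5.30, 4.65 and 5.25 in drug flasks 1, 3 and 4. It differed by -0.79 (SE 0.243) with adjusted p = 0.0449, and with the values as deposited the difference was 0.0681, so its direction depends on the scaling. With median centring it was -0.0628 (adjusted p = 0.939), and its call held in 2 of 12 alternatives, being lost without every array except control 5.

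SNRPN encodes SmN, a variant of the core spliceosome protein SmB, and lies in the Prader-Willi cluster on chromosome 15. Its brighter probe read 8.01, 8.16 and 8.35 in control flasks 2, 5 and 6, and 8.04, 8.13 and 8.14 in drug flasks 1, 3 and 4, and the groups overlapped. The difference was -0.08 (SE 0.131) with a 95% interval from -0.38 to 0.23 (adjusted p = 0.744 in limma), and -0.22 (SE 0.126) on the other probe (adjusted p = 0.266). These intervals leave out a change of 1 on the log2 scale in either direction. NDN, of the same cluster, encodes necdin, a MAGE family protein that restrains growth in neurons. It was dim in both groups, between 4.57 and 5.83 over the 6 arrays, and differed by 0.21 (SE 0.324). With the values as deposited NDN differed by 1.51 and with median centring by 1.38, and passed under neither.

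PEG3, a zinc finger gene on chromosome 19, and DLK1, a membrane protein with EGF repeats that acts on Notch signalling and holds back fat cell differentiation, were dim as well. The brighter PEG3 probe read 6.30, 6.49 and 6.40 in control flasks 2, 5 and 6, and 5.76, 6.24 and 6.39 in drug flasks 1, 3 and 4. Its difference of -0.27 (SE 0.181) did not pass (adjusted p = 0.346 in limma), and the second probe gave 0.33 (SE 0.203), of the opposite sign. DLK1 read 5.22, 5.30 and 5.98 in control flasks 2, 5 and 6, and 5.69, 5.53 and 5.53 in drug flasks 1, 3 and 4, a difference of 0.09 (SE 0.211) with adjusted p = 0.819. DLK1 differed by 1.06 with the values as deposited and by 0.93 with median centring, and passed under neither. At these signals near the lower end of the array, a difference of a few fold in a weakly expressed gene may not be seen. Over the alternatives, PEG3, DLK1, NDN and SNRPN had 0 calls on their brightest probes, and each changed sign in at least 1 of them.

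H19, the only maternally expressed member, is a long noncoding RNA whose gene shares enhancers with IGF2. Its brighter probe read 9.88, 8.60 and 9.67 in control flasks 2, 5 and 6, and 8.60, 8.71 and 8.95 in drug flasks 1, 3 and 4. Control 5 stood with the drug arrays, and the other control arrays stood above all of them. The mean went from 9.38 ± 0.688 (SD, n = 3) to 8.76 ± 0.179 (n = 3), a difference of -0.62 (SE 0.325) that did not pass (adjusted p = 0.212 in limma). Without control 5 the difference was -1.001 with adjusted p = 0.00548, and in the other 13 alternatives H19 did not pass. Without control 2 the difference was -0.37 (adjusted p = 0.457), so its size depended on which control array was left out. The second H19 probe was dim in both groups and differed by -0.12 (SE 0.158).

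GRB10 is an adaptor that binds the insulin and IGF1 receptors and dampens their signal. Its single probe read 12.36, 12.18 and 12.60 in control flasks 2, 5 and 6, and 11.93, 11.77 and 12.13 in drug flasks 1, 3 and 4. Every drug array was below every control array, and such separation was seen for 47.0% of all genes. The difference was -0.44 (SE 0.158), with a 95% interval from -0.81 to -0.06, and did not pass (adjusted p = 0.0792 in limma). It did pass with each array centred on its median (-0.63, adjusted p = 0.0211), with 50 added in place of 1 (0.0489) and with array weights (0.0458), in 3 of 14 alternatives. Of the 8 genes, PEG10, PLAGL1 and GRB10 were those whose groups did not overlap.

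**Figure D2:**
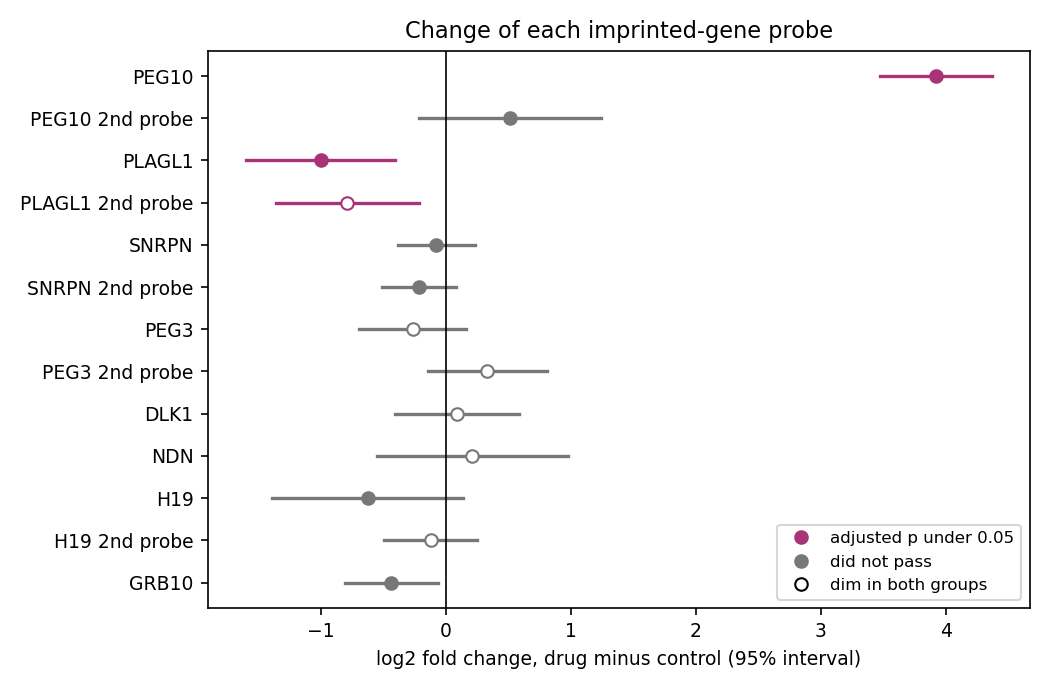
Log2 fold change, drug minus control (horizontal axis), with its 95% interval from limma for each of the 13 probes; purple marks an adjusted p below 0.05, grey marks probes that did not pass, and open circles mark probes dim in both groups. The brightest PEG10 probe stands alone at 3.93, both PLAGL1 probes lie below 0, and the intervals of SNRPN, PEG3, DLK1, NDN and H19 include 0.

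The genes beside PEG10 changed in both directions or did not pass. SGCE, the epsilon-sarcoglycan gene, is also paternally expressed and starts next to PEG10 on the opposite strand. It fell from 14.28 ± 0.0888 (SD, n = 3) to 12.78 ± 0.241 (n = 3), a difference of -1.51 (SE 0.152) with limma's adjusted p = 0.000352, and its second probe fell by 1.40 on the log2 scale. CASD1, a sialic acid acetyltransferase gene on the far side of SGCE, was lower at -2.01 (SE 0.143). On the other side of PEG10, the neurabin gene PPP1R9A was dim in both groups and differed by 0.64 (SE 0.2) with adjusted p = 0.0457, a call lost in 10 of 13 alternatives, and its second probe did not pass. PON1 and PON3, of the paraoxonase family, did not pass, at -0.15 (SE 0.135) and -0.44 (SE 0.295), and PON2 fell by 0.88 on the log2 scale. COL1A2 and BET1, beyond CASD1, did not pass. TFPI2, a protease inhibitor gene of the same imprinted region, rose by 1.35 (SE 0.12) on 1 probe and by 1.93 on the other. SGCE, PPP1R9A and TFPI2 were named as listed genes of the PEG10 cluster. The other genes of this paragraph were taken in RefSeq gene order on GRCh38.p14 after their values could be seen.

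Of the measured neighbours of PLAGL1, 1 rose, 3 fell and 3 did not pass, where 35.1% of all genes were called. Too few genes were read to set this count apart from that share. SF3B5, a splicing factor subunit, rose by 0.62 (SE 0.154), a call lost in 3 of 14 alternatives: with the values as deposited, without control 5 and without control 6 (adjusted p = 0.0533, 0.0615 and 0.0514). UTRN, the dystrophin relative utrophin, differed by -1.10 (SE 0.128), FUCA2, a fucosidase, by -0.96 (SE 0.119), and LTV1, a factor of ribosome assembly, by -0.69 (SE 0.137), all 3 lower with the drug. ZC2HC1B, PHACTR2 and STX11 did not pass, at -0.02, -0.16 and -0.11.

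**Figure D3:**
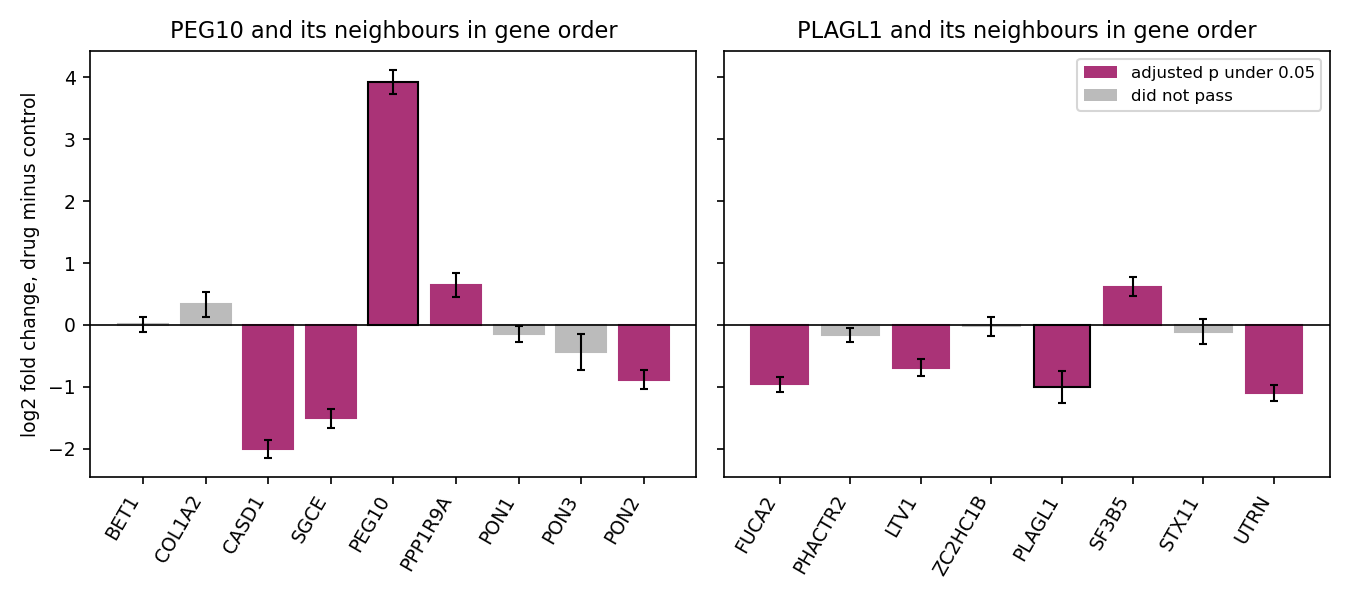
Log2 fold change, drug minus control (vertical axis, error bars 1 SE from limma), for the nearest measured protein-coding genes on either side of PEG10 (left) and PLAGL1 (right), in chromosome order and not to distance; purple bars passed an adjusted p of 0.05 and grey bars did not. PEG10 rose by 3.93 between SGCE at -1.51 and PPP1R9A at 0.64, and PLAGL1 fell beside SF3B5, which rose.

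A further 49 imprinted genes were listed by parental origin, and 40 of them were measured. Of these, 11 rose, 6 fell and 23 did not pass, or 42.5% called against 35.1% of all genes. Of 13 measured genes listed as maternally expressed, 8 rose, 2 fell and 3 did not pass, and their median difference was 0.63. The 76.9% called stood against 35.1% of all genes. This list includes genes with maternal expression in some tissues only, such as UBE3A in neurons. The number that rose was 4 with each array centred on its median and 5 with the values as deposited, without control 6 or without drug 1, while the number that fell was 2 under all 14 alternatives. Of 20 listed as paternally expressed, 3 rose, 3 fell and 14 did not pass (30% called), and the median was 0.0019. Of 7 listed as dependent on promoter or tissue, 1 fell and 6 did not pass (14.3% called). The difference between the maternal and the paternal list was not tested.

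In the cluster on chromosome 11 that holds H19, genes with maternal expression went both ways. CDKN1C, the cell cycle inhibitor p57, rose from 11.40 ± 0.183 (SD, n = 3) to 12.37 ± 0.0441 (n = 3), a difference of 0.97 (SE 0.133) with limma's adjusted p = 0.00134. PHLDA2, which limits placental growth, rose by 0.63 (SE 0.154) and KCNQ1, a potassium channel, by 0.40 (SE 0.123). PHLDA2 lost its call in 4 of 14 alternatives, among them without control 6 or drug 1 (adjusted p = 0.0542 and 0.0596). KCNQ1 lost its call in 6 of 14, among them without any 1 array except control 5 (adjusted p from 0.07 to 0.143). OSBPL5, a lipid transfer protein, was lower at -0.72 (SE 0.125). SLC67A1, named SLC22A18 on the array, did not pass at -0.38 (SE 0.207), and neither did the paternally expressed INS and IGF2-AS, at 0.000735 and -0.03.

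On chromosome 7, CPA4, a carboxypeptidase gene of the MEST cluster, rose from 15.09 ± 0.16 (SD, n = 3) to 16.45 ± 0.202 (n = 3), a difference of 1.36 (SE 0.153). KLF14, of the same cluster, was dim in both groups and rose by 0.76 (SE 0.127); its value was 3.04 as deposited, 2.91 with median centring and 0.28 with 50 added, and the call was lost in these 3 of 13 alternatives (adjusted p = 0.129, 0.147 and 0.0538). COPG2 did not pass at -0.13 (SE 0.118). Of the Prader-Willi and Angelman genes on chromosome 15, UBE3A, a ubiquitin ligase read from the maternal copy in neurons, differed by -0.73 (SE 0.129) and was lower with the drug (adjusted p = 0.00436 in limma). MAGEL2, MKRN3, NPAP1 and ATP10A did not pass, with differences from -0.02 to 0.29. Neither did RTL1 and DIO3, which share the DLK1 cluster, at 0.02 and 0.00302, nor ZIM2 and USP29, which share the PEG3 cluster, at -0.01 and 0.14.

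Paternally expressed genes of other loci held the largest changes of these lists. CMKLR2, a chemerin receptor named GPR1 on the array, fell from 12.46 ± 0.0648 (SD, n = 3) to 9.11 ± 0.16 (n = 3), a difference of -3.35 (SE 0.129) with limma's adjusted p = 1.44e-05. ZNF331, a zinc finger gene listed here as paternally expressed although its parental origin differs between transcripts, rose by 1.98 (SE 0.165) on 1 probe and by 1.20 on the other. DIRAS3, a Ras-like gene that restrains growth, was dim in the control flasks and rose by 1.82 (SE 0.157). ZDBF2, the neighbour of CMKLR2 in its imprinted domain, differed by -0.91 (SE 0.132), and INPP5F, an inositol phosphatase, rose by 0.84 (SE 0.106). WT1, imprinted in some tissues, was lower at -0.87 (SE 0.142), and IGF2R, the receptor that clears IGF2, did not pass at 0.59 (SE 0.236).

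Of 21 measured genes that set, keep or erase imprints, 6 fell, 1 rose and 14 did not pass; the 33.3% called was not above the 35.1% of all genes, and the median was 0.040 against 0.0075 over all genes. UHRF1, which guides the maintenance methyltransferase, fell from 13.20 ± 0.0343 (SD, n = 3) to 11.06 ± 0.427 (n = 3), a difference of -2.14 (SE 0.213). DNMT3A, a de novo methyltransferase, differed by -1.53 (SE 0.149), CTCF, the insulator protein of the H19 control region, by -1.06 (SE 0.121), and DNMT1, the maintenance enzyme, by -0.998 (SE 0.217), each lower with the drug. TRIM28, the corepressor that ZFP57 recruits, was lower at -0.57 (SE 0.15) and so was TET2, a methylcytosine oxidase, at -0.55 (SE 0.126). The latter is the brightest TET2 probe. A second TET2 probe, dim in neither group, differed by -1.61 (SE 0.155) with limma's adjusted p = 0.000285. On probes dim in both groups TET2 differed by -0.45, which passed, and by -0.28, which did not. ZNF445, another imprint keeper, rose by 0.38 (SE 0.11) on its brighter probe alone, and ZFP57 did not pass at 0.04. ZNF445 lost its call with median centring and without any 1 array, in 7 of 14 alternatives (adjusted p from 0.062 to 0.119). TRIM28 lost its call without drug 1, drug 3 or drug 4 (adjusted p from 0.0669 to 0.0821). The brightest TET2 probe lost its call without drug 1 or drug 3 (0.0597 and 0.0563). The number called was 4 without drug 3 in place of 7.

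Of 23 partners and relatives of the members, 4 rose, 8 fell and 11 did not pass (52.2% called, against 35.1% of all genes); the median was -0.30. The number that rose was 3 or 4, and the number that fell 5 to 10, over the 14 alternatives, with 5 reached without drug 1 or drug 3. GRB14, an adaptor of the same family as GRB10 that also inhibits the insulin receptor, rose from 7.68 ± 0.265 (SD, n = 3) to 11.65 ± 0.0565 (n = 3), a difference of 3.97 (SE 0.157) with limma's adjusted p = 1.44e-05, while GRB7, the other relative, was lower at -1.38 (SE 0.233). Of their receptors, INSR was lower at -0.54 (SE 0.165) on its brighter probe and IGF1R did not pass at -0.30 (SE 0.189). INSR lost its call in 6 of 14 alternatives, which were every left-out array except control 2 (adjusted p from 0.0806 to 0.119) and the mean of its probes (-0.20, adjusted p = 0.244). PLAG1, a relative of PLAGL1 that drives IGF2 promoters, was dim in the control flasks and rose by 2.18 (SE 0.154), and PLAGL2 did not pass at 0.04. The IGF2 mRNA-binding proteins IGF2BP3 and IGF2BP2 were lower, at -1.76 (SE 0.189) and -1.10 (SE 0.17), and IGF2BP1, dim in both groups, did not pass. MAGEH1, a relative of NDN, rose by 1.59 (SE 0.116), and MAGED1, another relative, did not pass at -0.41 (SE 0.184). SNRPB, the closest relative of SNRPN, did not pass on any of its 3 probes, and their probe signals may not be fully separate because the genes are similar in sequence.

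**Figure D4:**
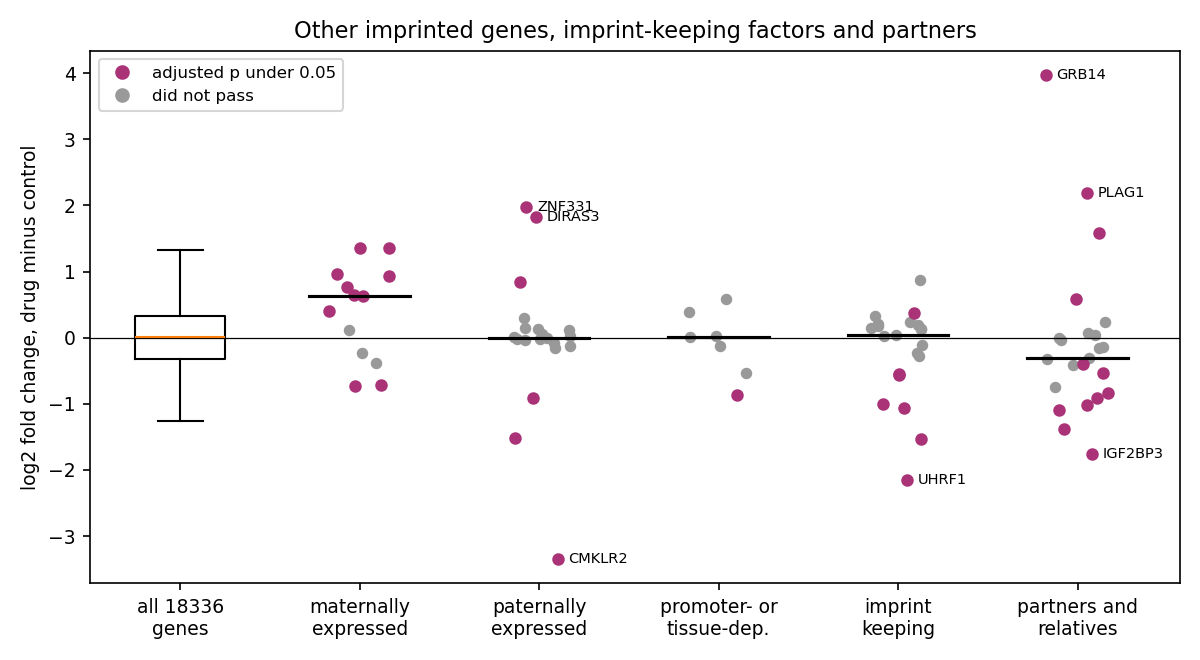
Log2 fold change, drug minus control (vertical axis), of each measured gene on 5 lists; purple points passed an adjusted p of 0.05, grey points did not, black bars are list medians, and the box shows the quartiles of all 18336 genes with whiskers from the 5th to the 95th percentile. CMKLR2 at -3.35 and GRB14 at 3.97 are the farthest points, and the maternally expressed list has the highest median, 0.63.

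The labelled cell type was checked on marker lists. The share called was 36.4% for neuroendocrine, 14.3% for fibroblast and 20% for blood cell markers, against 35.1% of all genes. The neuroendocrine share was thus near that of the array as a whole. Of 11 measured neuroendocrine markers, 2 were dim in both groups, among them NEUROD1, and 4 rose with the drug, led by NCAM1 at 5.08 (SE 0.154) with ENO2 at 1.09 (SE 0.222) and SYP at 1.06 (SE 0.142). The mean log2 value of the 11 markers per array went from between 8.97 and 9.03 to between 9.70 and 9.85, while 7 of the 11 did not pass and the median difference was 0.28. With the mean of its probes NCAM1 differed by 2.89. UCHL1, INSM1 and DLL3 were dim in neither group, at 16.26, 10.05 and 10.05 in control arrays, where 3 of the 11 markers were dim. Of 7 fibroblast markers, 1 fell, COL1A1 at -2.12 (SE 0.129), and DCN and COL3A1 were dim in both groups. COL1A1 was bright, at a mean of 14.81 in control and 12.69 in drug arrays. PDGFRB, LUM and PDGFRA were dim in neither group, at 10.18, 8.80 and 7.83 in control arrays. The list's mean was between 8.21 and 8.51 in control and 7.92 and 8.18 in drug arrays. Of 5 blood cell markers, 1 rose, CD14 at 0.76 (SE 0.113), and PTPRC and CD3E were dim in both groups. CD14 and CD68 were dim in neither group, at 10.80 and 9.42 in control arrays. For the blood list the mean was between 7.59 and 7.74 in control and 7.66 and 8.01 in drug arrays. These marker differences ran between the same groups as the changes of PEG10 and PLAGL1, and their part in those changes was not tested.

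**Figure D5:**
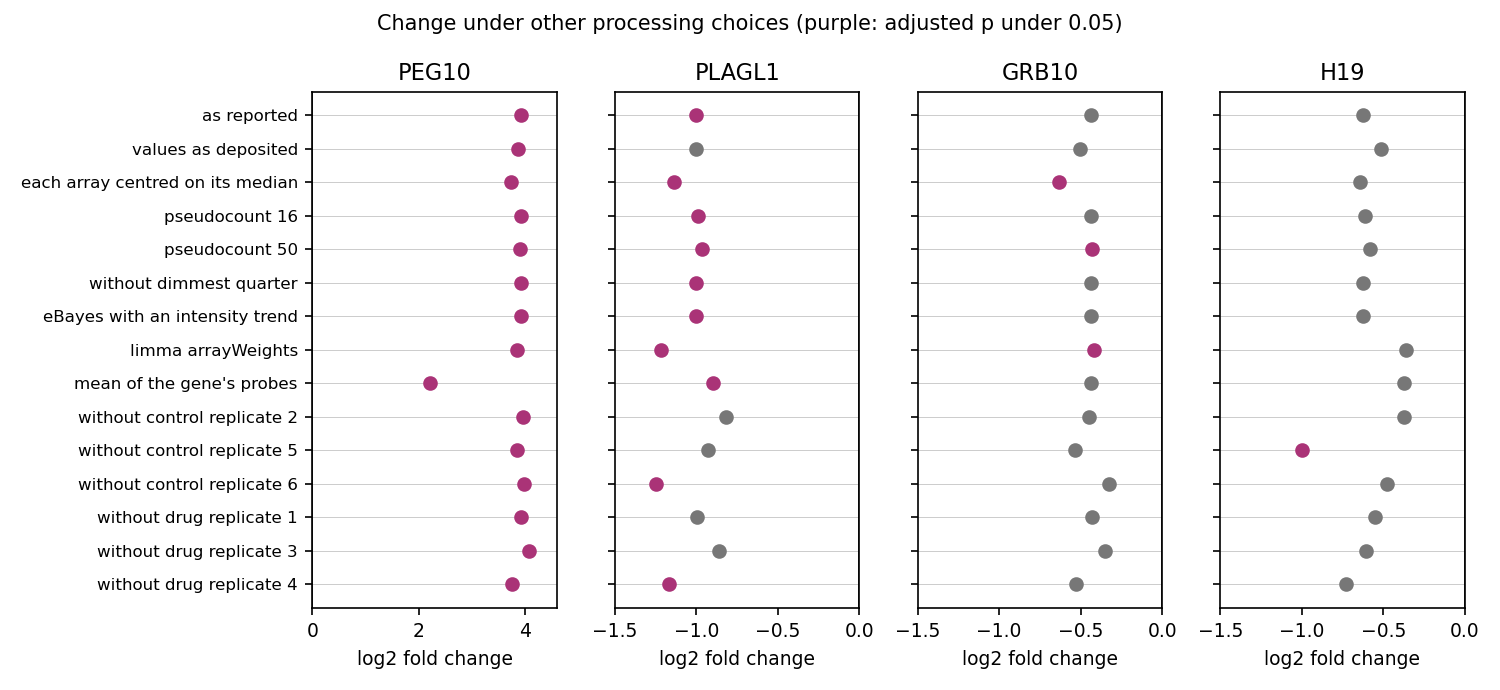
Log2 fold change, drug minus control (horizontal axis), of PEG10, PLAGL1, GRB10 and H19 as reported and under 14 other processing choices (rows); purple points passed an adjusted p of 0.05 and grey points did not. Each gene was read from its brightest probe, except in the row for the mean of the gene's probes. PEG10 passed under every choice, from 2.22 to 4.08, whereas PLAGL1 passed under 9 of the 14, GRB10 under 3 and H19 under 1.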

How the data were processed

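RNA of 6 flasks was measured on 1 single-colour array each. The authors deposited linear-scale intensities for 31741 probes per array; the sources used here do not give the background correction or scaling behind them. Negative intensities occurred on 3 arrays (462 for control 2, 968 for control 5, 1 for drug 4). Array medians of log2(intensity + 1) differed by 0.337, so intensities were quantile normalized between arrays, set to 0 where negative, increased by 1 and put on the log2 scale. Groups came from sample titles. The groups were set against each other in limma 3.58.1 under R 4.3.3 (lmFit and eBayes, two-sided, no covariate, since the labels give no batch), with Benjamini-Hochberg adjustment over all probes; the number of arrays, 3 per group, limits the precision, and the median within-group SD was 0.196. The limma fit alone was tested on simulated log2 values with independent noise. That simulation left out the scaling between arrays, the floor at 0 and the added constant, so it does not bear on them. P-values rest on the spread between flasks.

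Probe names came from GEO's platform annotation: 24740 probes named 1 gene, 977 several and 6024 none. Symbols were updated through RefSeq synonyms (GRCh38.p14), and each of 18336 genes was read from its brightest probe. The named genes are the members, the listed genes of their clusters, the 3 largest called changes of each list and the genes most like PEG10 and PLAGL1; all others were chosen after their values were seen. Members and lists were chosen with earlier results of these data known. The 14 alternatives covered scaling, the added constant (16 or 50), dim probes, an intensity trend, array weights, the mean of a gene's probes and leaving out each array.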

Additional observations from a re-analysis of the deposited data

How the results depend on the processing

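PEG10, read from its brightest probe or the mean of its probes, kept its call under all 14 alternatives (from 2.22 to 4.08). The second PEG10 probe alone passed in 0 of 13 alternatives, with differences from 0.30 to 0.77. The number of member genes called was 1 in place of 2 with the values as deposited, and from 1 to 2 when 1 array was left out (1 without control 2, drug 1 or drug 3). Member probes called were 1 in place of 3 with the values as deposited, and from 1 to 3 with 1 array left out. Imprint-keeping genes called were from 4 to 6 with 1 array left out, in place of 7. The second PLAGL1 probe went from -0.79 to 0.068 with the values as deposited, where it did not pass; the cause was not tested. For the 13 member probes, 151 of 171 recomputed values stayed on the same side of the threshold, 14 lost and 5 gained a call. A further 1, the second PLAGL1 probe with the values as deposited, lost its call and reversed its sign. Another 11 changed sign without passing under either setting, which is not counted as a reversal. Without scaling, the median difference of all genes was 0.205, and with median centring 0.074, in place of 0.0075. All genes called ranged from 4973 to 7578. No paired analysis was possible because the control and drug titles share no replicate number. Dim probes had no detection call, and 6 of the 13 member probes were dim in both groups.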

Other observations

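The genes whose log2 values over the 6 arrays followed PEG10 most closely, by Pearson's correlation, were SEMA6A, a semaphorin, PCYOX1L and KDM1B, a histone demethylase that in the mouse oocyte is needed to set maternal imprints. Their differences, drug minus control, were 0.94, 2.18 and 1.26, each called (limma's adjusted p from 4.04e-05 to 0.000757). For PLAGL1 they were MAP4K3, a kinase, PIGZ, an enzyme of membrane anchors, and RNASE7, an antimicrobial ribonuclease, at -0.34, -0.73 and -0.68, of which MAP4K3 did not pass. PIGZ lost its call in 3 of 14 alternatives, among them without drug 1 or drug 3, and RNASE7 in 5, among them without control 2, control 5, drug 1 or drug 3. The coefficients were at least 0.992 over 6 arrays that share 1 contrast, and with 18336 genes ranked over so few arrays they describe these arrays and no more.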
